A study of Mus musculus with 18 samples.

Results

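Pericyte and smooth muscle transcripts were followed in RNA sequenced from mouse endothelial cells. They are 9 genes taken by symbol: Acta2, Myh11, Tagln, Itga8, Rgs5, Pdgfrb, Cspg4, Kcnj8 and Abcc9. All 9 were listed among the 17513 genes of the heart table and among the 17242 genes of the liver table. The heart libraries came from wild-type adult male mice at homeostasis, with 3 libraries from each of 4 regions: Apex, LV, VS and OR in the labels' own terms. The liver libraries came from adult male mice also at homeostasis, that carried Ki67-CrexER together with Cdh5-DreER and the reporter R26-RL-tdT, with 3 tdTomato-positive and 3 tdTomato-negative libraries. Both liver groups carried all 3 alleles. In these mice a Cre recombinase is driven from the proliferation gene Ki67, a Dre recombinase from the endothelial gene Cdh5, and the Rosa26 reporter gives tdTomato after both have acted. The labels name no inducing drug, animal, pool or sort gate, so p-values measure only the spread between libraries, which may be technical.

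Pericytes and vascular smooth muscle cells, together called mural cells, wrap the endothelial tube from outside. Pericytes sit on capillaries within the basement membrane they share with endothelium, and smooth muscle cells form the contractile coat of arterioles, arteries and veins. Endothelial Pdgfb recruits mural cells through the receptor Pdgfrb, and the contractile genes are switched on by serum response factor with its partner myocardin at DNA motifs called CArG boxes. The liver sinusoid has stellate cells in the place of pericytes, while smooth muscle surrounds the portal and arterial vessels.

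The genes have these roles. Acta2 encodes smooth muscle alpha-actin, Myh11 the smooth muscle myosin heavy chain and Tagln the actin-binding protein transgelin. Itga8 encodes the integrin alpha8 chain, which pairs with the Itgb1 chain and binds matrix proteins such as nephronectin. Rgs5 encodes a GTPase-activating protein that dampens G protein signals, Pdgfrb the receptor for platelet-derived growth factor B, and Cspg4 the proteoglycan NG2. Kcnj8 encodes the pore (Kir6.1) and Abcc9 the sulphonylurea receptor (SUR2) of the vascular ATP-sensitive potassium channel.

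Promoter sequences are given for 3 genes that differ in where they were found: Acta2, the second most abundant of the 9 in heart, Rgs5, the most abundant there, and Itga8, the most abundant in liver. Each runs from 250 bases before to 50 bases after a listed start site in GRCm38.p6, the assembly also called mm10. For Rgs5 this site is the start of the annotated gene. For Acta2 and Itga8 it lies inside the annotated gene, which begins at chr19:34255585 and chr2:12301985 on the minus strand. Part of the sequence before the site is thus within these 2 genes. Acta2 is at chr19:34255324-34255623 on the minus strand, Rgs5 at chr1:169655251-169655550 on the plus strand and Itga8 at chr2:12301895-12302194 on the minus strand. Capitals mark CArG-like boxes (CC and GG around 6 bases of which 1 is G or C and the others A or T) and the TATA-like letters TATATA, on either strand.
Acta2: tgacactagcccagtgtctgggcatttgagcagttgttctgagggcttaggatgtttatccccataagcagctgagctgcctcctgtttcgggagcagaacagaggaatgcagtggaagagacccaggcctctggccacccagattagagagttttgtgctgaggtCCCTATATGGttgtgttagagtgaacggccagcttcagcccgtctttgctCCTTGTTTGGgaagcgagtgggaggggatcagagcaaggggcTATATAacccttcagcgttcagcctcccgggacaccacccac
Rgs5: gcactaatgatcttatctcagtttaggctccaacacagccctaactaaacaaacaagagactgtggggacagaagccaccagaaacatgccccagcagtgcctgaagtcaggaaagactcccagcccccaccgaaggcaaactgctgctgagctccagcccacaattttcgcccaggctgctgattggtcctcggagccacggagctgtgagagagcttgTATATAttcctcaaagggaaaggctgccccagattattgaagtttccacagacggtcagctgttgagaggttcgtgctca
Itga8: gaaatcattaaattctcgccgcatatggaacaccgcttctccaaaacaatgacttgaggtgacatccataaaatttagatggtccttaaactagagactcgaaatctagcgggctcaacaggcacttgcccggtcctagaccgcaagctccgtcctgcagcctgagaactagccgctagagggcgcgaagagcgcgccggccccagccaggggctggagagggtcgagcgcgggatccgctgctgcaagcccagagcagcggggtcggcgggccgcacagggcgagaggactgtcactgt
Acta2 held 2 such CArG-like boxes, which begin 84 and 34 bases before the listed site, and TATATA begins 8 bases after it. Rgs5 held TATATA 30 bases before its start, and the Itga8 window held none of these letters. On either strand, a box of this kind occurred in 8.50% of 32851 promoter windows of the same length, the strict box with only A or T inside in 1.63% and TATATA in 5.67%. The strict box and TATAAA, which occurred in 13.6%, were in none of the 6 windows that matched a gene of the set, those of Rgs5, Itga8, Kcnj8, Abcc9, Cspg4 and Acta2. None of the marked stretches overlapped another, and a match describes letters only.

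In the RefSeq annotation Kcnj8 (chr6:142564837-142571614) and Abcc9 (chr6:142587862-142702766) are neighbours on the minus strand, with 16247 bases and 0 annotated genes between them. Tagln (chr9:45929628-45936058) overlaps Pcsk7, and Abcc9 overlaps the noncoding gene 5330439B14Rik. The deposited counts of Tagln and Abcc9 were not whole in 18 of 18 libraries, and their values are less certain than those of genes counted in whole reads. Itga8 overlaps the noncoding gene E030013I19Rik. Acta2 closely resembles other actin genes, and its count was not whole in 1 of 18 libraries.

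The libraries held 21590400 to 27720154 counts in heart and 23715769 to 26538590 counts in liver. A list of 15 endothelial genes was detected in full in every library and summed to 9731 to 13204 TPM (a level scaled for gene length and library depth) in heart and to 8789 to 11180 TPM in liver. Genes of heart muscle cells summed to 1763 TPM in VS 1, 6098 TPM in VS 2 and 2678 to 4416 TPM in the other 10 heart libraries. Leukocyte genes summed to 1193 to 1867 TPM in tdTomato-positive livers, and to 80.4, 217 and 4173 TPM in the tdTomato-negative libraries 1, 2 and 3. The libraries VS 1, VS 2 and tdTomato-negative 3 thus stood apart from the others of their group.

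In heart, Rgs5, Acta2 and Tagln were among the more abundant messages of the endothelial libraries. Rgs5 averaged 411 TPM over the 12 libraries and ranked 426th of 17513 genes by mean level. Acta2 averaged 235 TPM (711th) and Tagln 134 TPM (1224th). Lower levels followed for Kcnj8 (46.2 TPM), Pdgfrb (33.6), Myh11 (17.9), Abcc9 (8.54), Cspg4 (5.02) and Itga8 (1.18). By rank these ran from 3094th for Kcnj8 to 11365th for Itga8. The ranges of neighbours in this order overlapped between libraries, from Rgs5 and Acta2 down to Abcc9 and Cspg4, with a last gap between Cspg4, at 3.39 TPM or more, and Itga8, at 3.12 TPM or less. In bulk RNA, fewer mural cells and less of a message per cell cannot be told apart.

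**Figure D1:**
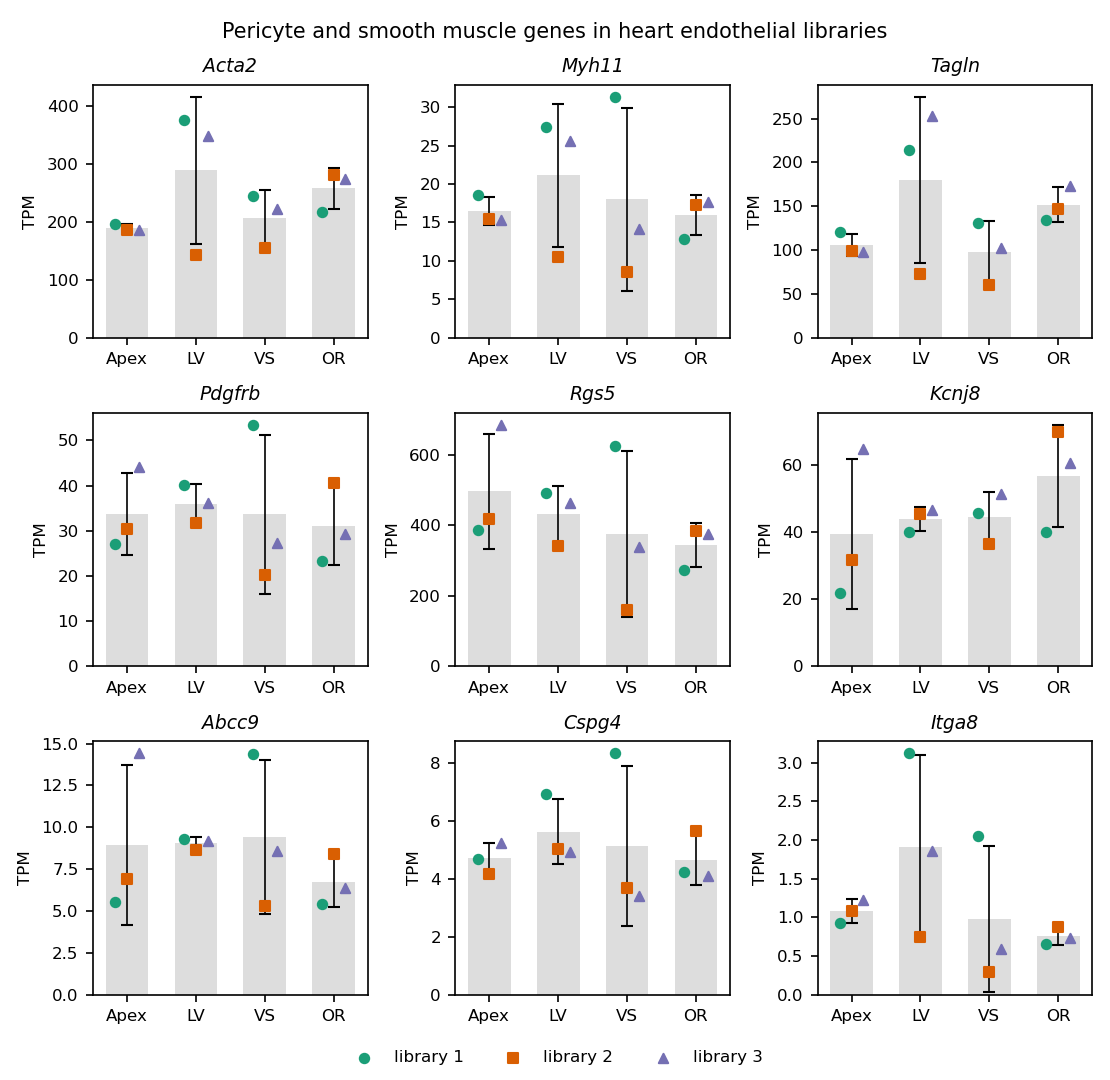
TPM of the 9 genes in the 12 heart libraries, by region. Bars are means, error lines are SD (n = 3) and each point is 1 library. The low point of VS 2 is seen for Rgs5, Tagln, Myh11, Pdgfrb, Abcc9 and Itga8, and the low point of LV 2 for Acta2, Tagln and Myh11.

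Setting the 4 heart regions against each other asks whether mural transcripts in cardiac endothelial samples differ by place in the heart. Acta2 and Tagln were lower in every Apex library than in every OR library, and spread most widely in LV. Rgs5, Pdgfrb, Cspg4, Kcnj8 and Abcc9 overlapped in every pair of regions. By TPM, the highest region mean of the 9 genes was 1.16 (Pdgfrb) to 2.53 (Itga8) times the lowest. Within a region, the highest library exceeded the lowest by up to 2.45-fold (Cspg4) to 7.07-fold (Itga8). These values depend on the scale. By CPM (counts scaled for library depth), on which overlaps were judged, Itga8 had 5.40 in VS 1 and 1.19 in VS 2, a narrower gap. The OR mean of Pdgfrb was the lowest of the 4 regions by TPM (31.1) and the highest by CPM (109). Over the 4 regions edgeR called 0 of the 9 genes and 0% of 13542 genes at an adjusted p of 0.05. Acta2 and Tagln were at an unadjusted p under 0.05, as were 8% of all genes. DESeq2 called 0 of the 9 and 80 genes in all (0.517%). In Apex against VS all 9 were above an unadjusted p of 0.05, a level that 7.47% of genes met, and edgeR called 0%.

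Among the contractile genes, Acta2 had 197, 186 and 186 TPM in Apex, 376, 142 and 347 TPM in LV, 245, 154 and 222 TPM in VS and 217, 280.3 and 274 TPM in OR. Every OR library was above every Apex library, and LV held both the lowest and the highest library of all 12. Tagln had 121, 99.3 and 97.7 TPM in Apex, 214, 72.65 and 253 TPM in LV, 130.5, 60.1 and 103 TPM in VS and 134.5, 147 and 174 TPM in OR. Every OR library was above every Apex and every VS library, VS 2 was the lowest of all 12 and LV 3 the highest. Of the 9 genes, Tagln was the 1 with VS wholly below OR, a pattern held by 6.68% of all genes tested.

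Relative to OR, Acta2 was lower in Apex by a log2 fold change of -0.68 (SE 0.25, edgeR adjusted p = 0.376), and Tagln by -0.77 (SE 0.32, edgeR adjusted p = 0.388). Neither passed in the model of all 12 libraries, in which edgeR called 0% of genes and 12.1% were at an unadjusted p under 0.05. Groups that did not overlap in this direction were found for 2 of the 9 genes, against 15.6% of all genes tested. In a model of only these 6 libraries both fell in Apex: Tagln by 0.76 on the log2 scale (SE 0.12, edgeR adjusted p = 0.0128) and Acta2 by 0.67 (SE 0.12, edgeR adjusted p = 0.0137). Over 17 alternatives the edgeR or DESeq2 adjusted p in this pair ran from 0.0137 to 0.774 for Acta2 and from 0.0128 to 0.774 for Tagln. The model of 6 libraries called 2 of the 9 genes lower and 956 of 13099 genes in either direction (7.3%), with 4.26% lower. It took its estimate of spread without the wide LV and VS groups. Of a list of 20 smooth muscle genes it called 5, all lower: Tpm2, Myl9, Sncg, Tagln and Acta2, the first 3 named after their values were seen. The same model called 6 of 15 genes of heart muscle cells, all lower in Apex, and their part in the result was not tested.

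Apex against LV gave differences of the same size for Acta2 (log2 fold change -0.60, SE 0.25, edgeR adjusted p = 0.925) and Tagln (-0.77, SE 0.32, edgeR adjusted p = 0.925). Here LV 1 and LV 3 were high and LV 2 was below every Apex library. edgeR called 0% of genes in this pair, with 5.38% at an unadjusted p under 0.05. Fibroblast genes summed to 1228, 769 and 1848 TPM in LV 1, LV 2 and LV 3, so the libraries with more Acta2 and Tagln also held more of these messages, and their part in the result was not tested. Tagln was further at an unadjusted p under 0.05 in LV against VS (log2 fold change 0.85, SE 0.32, edgeR adjusted p = 0.999) and in VS against OR (-0.85, SE 0.32, edgeR adjusted p = 0.699). In those pairs edgeR called 0% of genes, with 2.91% in LV against VS and 7.03% in VS against OR at an unadjusted p under 0.05.

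Myh11, the marker of mature smooth muscle, had 18.6, 15.5 and 15.4 TPM in Apex, 27.35, 10.5 and 25.6 TPM in LV, 31.4, 8.55 and 14.2 TPM in VS and 12.9, 17.2 and 17.7 TPM in OR. Its groups overlapped in all 6 pairs, and by TPM the extremes of all 12 libraries, VS 1 and VS 2, came from the same region. By CPM, VS 2 was still the lowest, but LV 1 was the highest at 97.0, with VS 1 at 94.8. Itga8 had 0.92, 1.08 and 1.23 TPM in Apex, 3.12, 0.74 and 1.86 TPM in LV, 2.05, 0.29 and 0.59 TPM in VS and 0.66, 0.87 and 0.73 TPM in OR. LV 1 was the highest and VS 2 the lowest. In LV against OR its log2 fold change was 1.08 (SE 0.50, edgeR adjusted p = 0.431), in a pair with 0% of genes called and 11.5% at an unadjusted p under 0.05. Without VS 1, the highest VS library, edgeR called Itga8 higher in LV than in VS (log2 fold change 1.85, SE 0.47, adjusted p = 0.0405), along with 4.45% of genes in either direction. Over 17 alternatives that adjusted p, from edgeR or DESeq2, reached 1.0. Over the 4 regions, leaving out VS 1, VS 2 or any other single library gave 0 calls among the 9.

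The list of 20 smooth muscle genes, which includes Acta2, Myh11, Tagln and Itga8, was read beside them. They are called contractile genes for short, though some, such as the integrin gene Itga8, are not part of the contractile apparatus. All 20 were tested, and 8 of them (40.0%) were at an unadjusted p under 0.05 over the 4 regions, against 8% of all genes, with 0 past an adjusted p of 0.05 in edgeR or DESeq2. In Apex against LV 18 of 20 were lower, with a median log2 fold change of -0.34 against -0.01 over all genes. This lean was not particular to the list. In the same pair 14 of 15 fibroblast genes (median -0.71), 14 of 16 stellate cell genes and 12 of 15 genes of heart muscle cells were lower. Of the 15 endothelial genes 6 were lower. In Apex against OR 17 of 20 were lower (median -0.29, all genes 0.002), beside 13 of 15 genes of heart muscle cells and 9 of 15 fibroblast genes. The most abundant members were Tpm1, a tropomyosin, at 505 to 884 TPM, Acta2, Smtn, the actin-binding smoothelin, at 150.1 to 260.4 TPM, and Myl9, a myosin light chain, at 116 to 324 TPM. Tpm1 and Smtn had an edgeR adjusted p over the 4 regions of 0.821 and 0.985, and Myl9 had 0.623.

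Among the pericyte genes, Rgs5 had 388, 417 and 684 TPM in Apex, 491, 340.4 and 464 TPM in LV, 626, 158 and 338 TPM in VS and 272, 382 and 375 TPM in OR. By TPM, the VS libraries spanned nearly the whole range, with VS 1 at 3.95 times VS 2. By CPM they ran from 442 to 1128, against 1613 in Apex 3. Pdgfrb, the receptor that pericytes need for recruitment, had 27.0, 30.3 and 44.0 TPM in Apex, 40.2, 31.7 and 36.1 TPM in LV, 53.4, 20.1 and 27.3 TPM in VS and 23.4, 40.5 and 29.3 TPM in OR. By TPM, VS 1 and VS 2 were its highest and lowest libraries. By CPM, OR 2 was the highest at 141, with VS 1 at 128, and VS 2 was still the lowest. Cspg4 ranged from 3.39 TPM in VS 3 to 8.32 TPM in VS 1. These 3 genes overlapped in every pair of regions, and their edgeR adjusted p over the 4 regions was 0.816 for Rgs5, 0.970 for Pdgfrb and 0.861 for Cspg4.

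The potassium channel pair did not share one pattern. Kcnj8 had 21.9, 31.7 and 64.7 TPM in Apex, 39.9, 45.4 and 46.5 TPM in LV, 45.7, 36.6 and 51.4 TPM in VS and 40.0, 69.7 and 60.4 TPM in OR. Abcc9 had 5.51, 6.94 and 14.4 TPM in Apex, 9.32, 8.65 and 9.18 TPM in LV, 14.4, 5.27 and 8.58 TPM in VS and 5.41, 8.40 and 6.39 TPM in OR. Apex 3 was high for both, VS 1 was high for Abcc9 alone, and OR 2 had the highest Kcnj8. Kcnj8 stood at 3.18 times the level of Abcc9 in VS 1 and at 9.46 times in OR 3, both per length. Both overlapped in every pair of regions, and the edgeR adjusted p over the 4 regions was 0.659 for Kcnj8 and 0.960 for Abcc9. All 4 channel subunit genes were tested and 0 passed. The other pore gene, Kcnj11, lay at 0.83 to 3.96 TPM and the other receptor gene, Abcc8, at 0 to 0.44 TPM.

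The 18 pericyte genes listed beside Rgs5, Pdgfrb, Cspg4, Kcnj8 and Abcc9, which include them, were all tested. Of these, 2 (11.1%) were at an unadjusted p under 0.05 over the 4 regions, against 8% of all genes, and edgeR and DESeq2 called 0. In VS against OR 16 of 18 were lower (median log2 fold change -0.28, all genes 0.005). There 5 (27.8%), all lower, were at an edgeR unadjusted p under 0.05, against 7.03% of all genes. The lean in direction was not particular to the list. In the same pair 13 of 15 fibroblast genes (median -0.37, 0 at that level) and 14 of 20 contractile genes were lower, beside 7 of 15 endothelial genes. In Apex against OR 13 of the 18 pericyte genes were lower, and 3 (16.7%), all lower, were at that level, against 12.1%. edgeR called 0 in both pairs. The most abundant after Rgs5 were Art3 at 121 to 195 TPM, Cox4i2, a subunit isoform of cytochrome oxidase, at 101 to 195 TPM and Ndufa4l2, a mitochondrial protein, at 102 to 173 TPM. Their summed level ran from 819 TPM in VS 2 to 1793 TPM in Apex 3.

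Across the 12 heart libraries, the median correlation was higher within the 2 sets named below than across them. Kcnj8 had low values with Myh11, Itga8, Rgs5 and Cspg4. Correlations are of log2 CPM (counts scaled for library depth, with a prior count of 2) and share the libraries' depth and scaling. They are given as descriptions with no test. Acta2 and Tagln followed each other most closely (Pearson r 0.93, Spearman rho 0.87), and r was 0.91 without LV 1 and LV 3, where Acta2 was farthest from its median. Among 9819 genes with a mean of at least 5 CPM, Tagln ranked 2nd for Acta2 and Acta2 ranked 1st for Tagln. Pdgfrb and Abcc9 came next (r 0.86, rho 0.85), then Myh11 and Itga8 (0.82, rho 0.80) and Pdgfrb and Rgs5 (0.80, rho 0.83). The 6 pairs among Acta2, Tagln, Myh11 and Itga8 had a median r of 0.73, the 10 pairs among Rgs5, Pdgfrb, Cspg4, Kcnj8 and Abcc9 0.56, and the 20 pairs across these sets 0.31. These medians depend on where Itga8 is placed. It had r 0.73 with Rgs5 and 0.61 with Pdgfrb, against 0.56 with Tagln and 0.44 with Acta2.

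**Figure D2:**
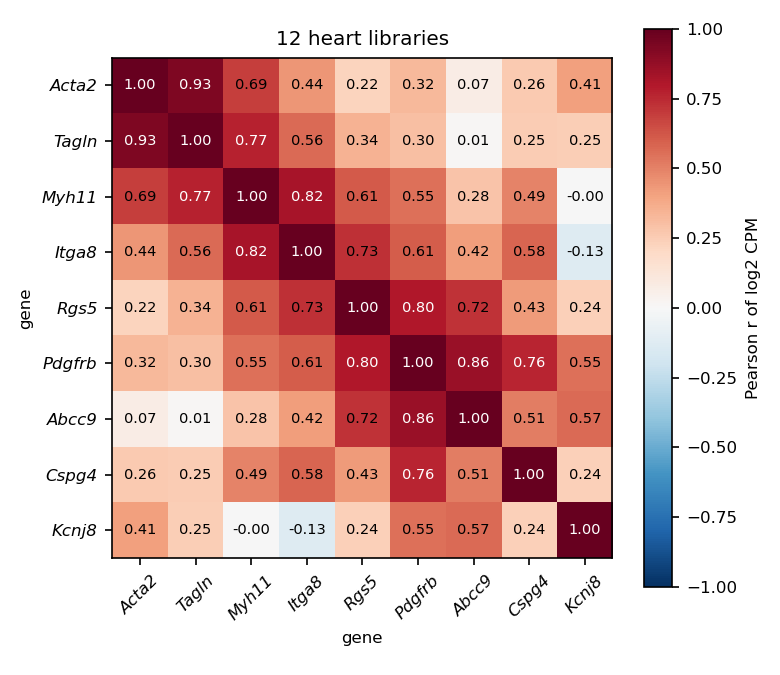
Pearson r of log2 CPM between the 9 genes over the 12 heart libraries. Acta2 and Tagln reach 0.93 and Pdgfrb and Abcc9 0.86, while Kcnj8 and Itga8 are at -0.13.

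Kcnj8 and Abcc9, the neighbours that encode parts of 1 channel, had r 0.57 (rho 0.52), and 0.18 without Apex 1 and Apex 3, where Abcc9 was farthest from its median. Kcnj8 had r of -0.002 with Myh11 and -0.13 with Itga8. Its most alike genes were Rdh5 (r 0.94), Ndufa4l2 (0.94) and Colec11 (0.93), and without Apex 1 and OR 2 these were 0.88, 0.91 and 0.88. Acta2 was most like Myl9 (0.95), Tagln and Tpm2 (0.91), and Tagln was most like Acta2, Myl9 (0.93) and Tpm2 (0.89). Myh11 was most like Pde3a (0.93), Map3k7cl (0.90) and Mylk (0.89), the last the kinase that activates smooth muscle myosin.

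Pdgfrb was most like S1pr3, a sphingosine-1-phosphate receptor (r 0.91), and Ano1, a chloride channel (0.91). Abcc9 was most like Zbtb21 (0.90), and Tnfrsf10b was also near it (0.88). Rgs5 was most like Frmd6 (0.96), Atf1 (0.94) and Casp4 (0.94). Without Apex 3 and VS 2 these were 0.85, 0.73 and 0.84. Cspg4 had the least close partners, Aatk (0.88), Pigl (0.82) and Ptges (0.80). Itga8 was most like Fgl2 (0.96), Snx14 (0.94) and Wdr47 (0.93), each over 12 libraries.

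In liver the order of levels was different. Itga8 came first at a mean of 33.7 TPM over the 6 libraries, then Kcnj8 at 16.3, Tagln at 5.16, Rgs5 at 4.49, Abcc9 at 4.02, Acta2 at 3.24, Pdgfrb at 0.38, Myh11 at 0.27 and Cspg4 at 0.0433 TPM. Neighbours in this order overlapped between libraries throughout. Itga8, first here, was the lowest of the 9 in heart. The heart and liver tables were normalised separately and come from mice of different genotype, so the levels are set side by side without a test. For Acta2, Myh11, Tagln, Pdgfrb, Rgs5 and Cspg4 the heart mean was 25.9 (Tagln) to 116 (Cspg4) times the liver mean, and for Kcnj8 and Abcc9 it was 2.84 and 2.12 times. These liver means rested in part on single libraries. Without tdTomato-negative library 2 the ratio became 71.1 for Tagln, 185 for Acta2 and 134 for Pdgfrb, and Tagln moved to the 5th place in the liver order. Without tdTomato-negative library 1 the ratio became 228 for Cspg4, 115 for Myh11 and 3.50 for Abcc9. Itga8 averaged 1.18 TPM in heart and 33.7 TPM in liver, and its highest heart library, at 3.12 TPM, was below its lowest liver library, at 18.3 TPM.

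**Figure D3:**
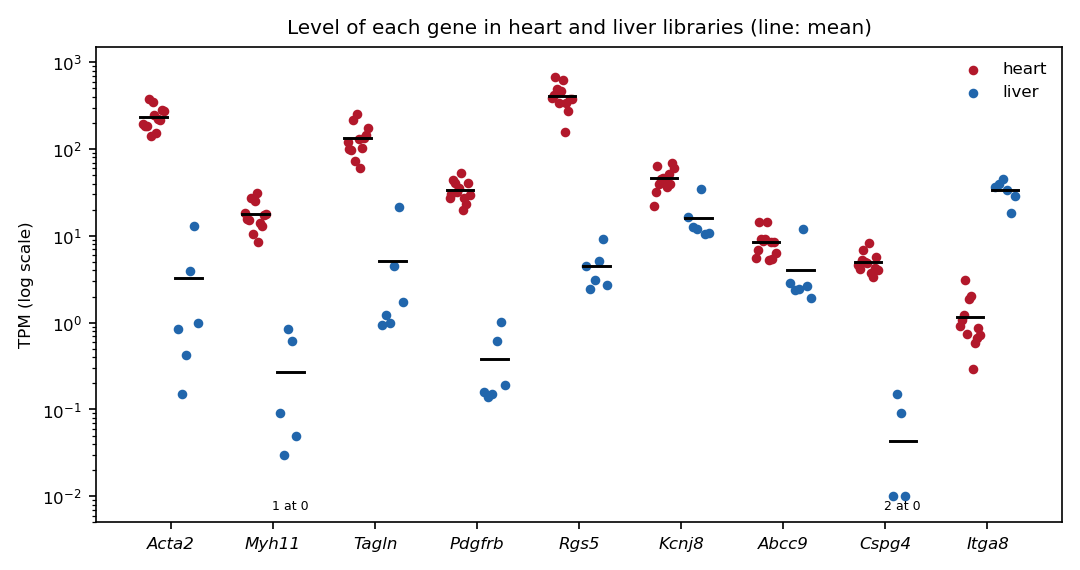
TPM of each gene in the 12 heart and 6 liver libraries on a log scale, with a line at the mean. Values of 0, which a log axis cannot show, are counted at the foot. The heart points lie above the liver points for Acta2, Myh11, Tagln, Pdgfrb, Rgs5 and Cspg4 and below them for Itga8.

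Kcnj8, Abcc9 and Itga8 together made up 3.61% to 9.43% of the summed TPM of the 9 genes in heart libraries. In liver they made up 89.5%, 93.2% and 92.8% in tdTomato-positive libraries and 84.2%, 40.8% and 88.0% in tdTomato-negative libraries. The 13 other genes of the pericyte list summed to 147 to 273 TPM in liver libraries, most of it from Mcam, an adhesion molecule that endothelial cells also carry (69.2 to 130 TPM), and Art3 (56.3 to 94.8 TPM). Higd1b, also on the list, had 0, 0.07 and 0 TPM in tdTomato-positive libraries and 0.54, 1.20 and 0 TPM in tdTomato-negative libraries. In heart Higd1b, looked up after its values were seen, lay at 35.5 to 60.0 TPM. The partner chain Itgb1 was abundant in both organs, at 214 to 535 TPM in heart and 219 to 269 TPM in liver.

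The liver comparison asks how tdTomato-positive endothelial cells, marked through the Ki67-driven Cre, differ from tdTomato-negative ones. Acta2, Tagln and Pdgfrb were lower in all 3 tdTomato-positive libraries than in any tdTomato-negative library, and Itga8 was higher. For Acta2 and Pdgfrb the gap to negative library 3 was only a few reads. Myh11 and Cspg4 were also low in the positive libraries, but Myh11 overlapped by 1 library and Cspg4 had a single count in 1 library of each group. Kcnj8, Abcc9 and Rgs5 overlapped. None of these differences passed an adjusted p of 0.05 in edgeR over all 6 libraries.

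Acta2 had 0.84, 0.15 and 0.42 TPM in tdTomato-positive livers, against 3.96, 13.1 and 0.99 TPM in tdTomato-negative livers. Tagln had 0.93, 1.22 and 1.00 TPM in tdTomato-positive livers, against 4.54, 21.6 and 1.72 TPM in tdTomato-negative livers. Pdgfrb had 0.16, 0.14 and 0.15 TPM in tdTomato-positive livers, against 0.61, 1.03 and 0.19 TPM in tdTomato-negative livers. In all 3 genes negative library 3 lay just above the positive libraries, and negative libraries 1 and 2 lay far above. In counts, Acta2 had 24 in negative library 3 against 22 in positive library 1. Pdgfrb had 16 in negative library 3 against 13 in each positive library, so that their lack of overlap rested on few reads. Cspg4 had 0, 0 and 1 count in tdTomato-positive livers and 21, 11 and 1 in tdTomato-negative livers, and Myh11 had 9, 2 and 0 counts in tdTomato-positive livers and 95, 63 and 5 in tdTomato-negative livers. These few reads did not pass edgeR's low-count filter, and 7 of the 9 genes were tested.

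The log2 fold change of tdTomato-positive over tdTomato-negative livers was -3.69 for Acta2 (SE 1.09, edgeR adjusted p = 0.276), -3.15 for Tagln (SE 0.97, edgeR adjusted p = 0.276) and -2.04 for Pdgfrb (SE 0.64, edgeR adjusted p = 0.276). Of the 7 genes tested, 4 were at an unadjusted p under 0.05, against 14.3% of 13115 genes. Groups that did not overlap were found lower for 3 of the 7 tested genes, against 9.91% of all genes, and higher for 1, against 10.7%. edgeR called 0% of genes. DESeq2 called Acta2 (adjusted p = 0.00268), Tagln (0.00445) and Myh11 (0.0434) lower in tdTomato-positive livers, with 604 of 13507 genes lower (4.47%).

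**Figure D4:**
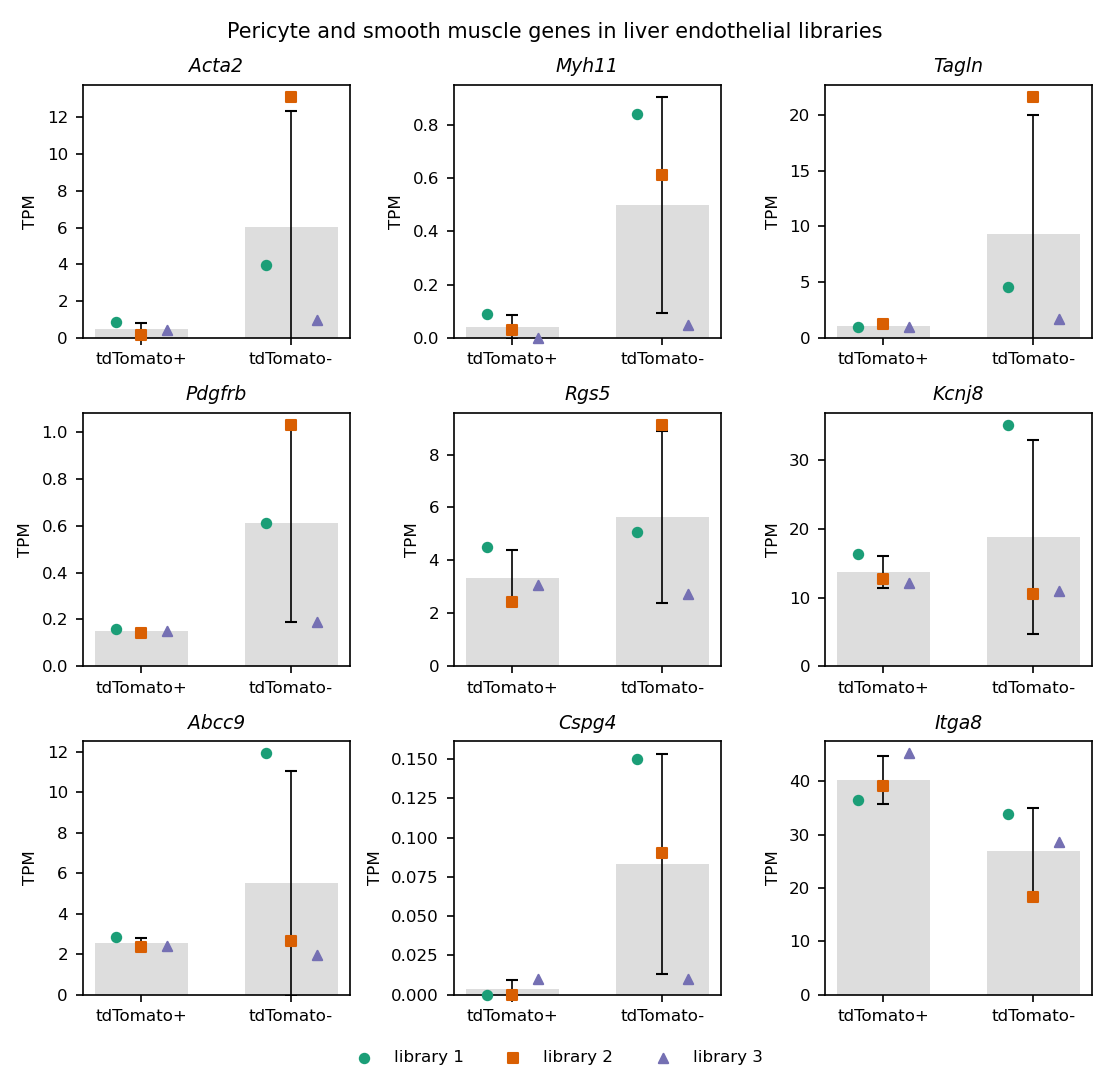
TPM of the 9 genes in the 3 tdTomato-positive and 3 tdTomato-negative liver libraries. Bars are means, error lines are SD (n = 3) and each point is 1 library. Negative libraries 1 and 2 are high for Acta2, Myh11, Tagln, Pdgfrb and Cspg4, and negative library 3 is close to the positive ones.

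Leaving out negative library 3, whose leukocyte sum stood apart, edgeR called 5 of the 9 genes lower in tdTomato-positive livers. Their log2 fold changes were -4.22 for Acta2 (SE 0.70, edgeR adjusted p = 0.00836), -3.66 for Tagln (SE 0.71, edgeR adjusted p = 0.0169) and -2.49 for Pdgfrb (SE 0.40, edgeR adjusted p = 0.00287), and Myh11 and Cspg4 were the others. Over 10 alternatives the edgeR or DESeq2 adjusted p ran up to 0.654 for each of Acta2, Tagln and Pdgfrb. The model without negative library 3 called 31.5% of all genes, with 16.1% lower, so that calls were common throughout the table. With the same library left out, 10 of 15 fibroblast genes and 9 of 11 hepatocyte genes were called, all lower in tdTomato-positive livers, and 8 of 10 leukocyte genes, all higher. Fibroblast genes summed to 65.0, 33.4 and 31.6 TPM in tdTomato-positive livers, and to 98.6, 215 and 38.2 TPM in tdTomato-negative livers. Hepatocyte genes summed to 502, 514 and 412 TPM in tdTomato-positive livers, and to 1125, 1029 and 622 TPM in tdTomato-negative livers. The part of these cells in the result was not tested.

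Rgs5 had 4.51, 2.42 and 3.07 TPM in tdTomato-positive livers, against 5.08, 9.12 and 2.72 TPM in tdTomato-negative livers (log2 fold change -0.75, SE 0.50, edgeR adjusted p = 0.525). Kcnj8 had 16.4, 12.6 and 12.1 TPM in tdTomato-positive livers, against 35.1, 10.5 and 10.9 TPM in tdTomato-negative livers. Abcc9 had 2.84, 2.37 and 2.42 TPM in tdTomato-positive livers, against 11.9, 2.63 and 1.94 TPM in tdTomato-negative livers. The 2 channel genes were high together in negative library 1 alone, and did not follow Acta2 and Tagln, which were highest in negative library 2. Their log2 fold changes were -0.46 for Kcnj8 (edgeR adjusted p = 0.711) and -1.12 for Abcc9 (edgeR adjusted p = 0.520), and without negative library 1 these became 0.38 and 0.17. Kcnj11 was at 0 in all 6 libraries, so Kcnj8 was the pore gene found in liver.

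Itga8 had 36.5, 39.2 and 45.3 TPM in tdTomato-positive livers, against 34.0, 18.3 and 28.7 TPM in tdTomato-negative livers. It was the 1 gene of the 9 with higher values in every positive library (log2 fold change 0.59, SE 0.22, edgeR adjusted p = 0.320), and it was lowest in negative library 2, where Acta2 and Tagln were highest. It did not pass in edgeR or in DESeq2 (adjusted p = 0.151). Of the 7 genes of the integrin list, which holds Itga8, Itgb1 and known ligands, 4 were at an unadjusted p under 0.05, 1 higher and 3 lower, against 14.3% of all genes. Itgb1 itself had a log2 fold change of -0.03 (edgeR adjusted p = 0.950).

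Of the 20 contractile genes, 14 were tested in liver and 12 were lower in tdTomato-positive livers, with a median log2 fold change of -0.96 against 0.003 over all genes. DESeq2 called 6 of 18 tested contractile genes, all lower, against 4.47% of all genes lower. Without negative library 3 edgeR called 10 of 16, all lower, against 16.1% of all genes lower and 31.5% in either direction. Of the 18 pericyte genes, 13 were tested and 12 were lower (median -0.75), and edgeR without negative library 3 called 8 of 16 lower and 1 higher, to be read against the same 16.1% and 31.5%. This lean was not particular to the 2 lists. In edgeR over all 6 libraries, 13 of 13 tested fibroblast genes (median -1.82) and 11 of 11 hepatocyte genes (median -1.14) were also lower. Of the 10 leukocyte genes 3 were lower. The 15 endothelial genes had a median of 0.12, with 9 higher and 6 lower. A list of endothelial-mural signalling holds ligands and receptors of both cell types, Pdgfrb included. Of its 28 tested genes, 15 were at an unadjusted p under 0.05, 14 of them lower in tdTomato-positive livers, against 14.3% of all genes. Pdgfb, the endothelial ligand of Pdgfrb, looked up after its values were seen, had 13.2, 8.64 and 10.9 TPM in tdTomato-positive livers, against 29.3, 19.7 and 10.9 TPM in tdTomato-negative livers (edgeR adjusted p = 0.340).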

How the data were processed

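Poly(A) RNA was copied to full-length cDNA, amplified by PCR, then sequenced from both ends (100 bp), per the labels' protocols. The build was mm10, per the submitters' processing notes; for the aligner, the counter and the gene annotation, names are not given in the sources used here. Each deposited table gives TPM, scaled by the authors for length and depth, and expected counts per gene, per the file headers. The region titled OR is the column OZ of the heart table. Expected counts were rounded and tested with edgeR 4.0.16 in R 4.3.3 (default low-count filter, TMM scaling, robust quasi-likelihood F test, Benjamini-Hochberg adjustment over all genes, threshold 0.05). The 12 heart libraries entered 1 model and the 6 liver libraries another. The test was checked on simulated data. Log2 fold changes put the group named first on top. DESeq2 1.42.0, other scaling and filters, a replicate block, single pairs and the omission of each library were alternatives. The main models did not pair libraries by replicate number, and the labels do not say whether same-numbered libraries share an animal.

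The 9 genes and all lists were chosen with earlier results of these data known. Named beside the 9 were up to 4 members of a list by mean TPM, any that passed, and the 3 genes most alike each of the 9 by correlation, leaving out unnamed models; others are marked. Some results by this rule are not reported here. Promoters came from RefSeq (GRCm38.p6), where 6 of 9 genes matched. Their listed start sites need not be the start of the annotated gene, and for Abcc9 the site lay 492 bases inside it.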

Additional observations from a re-analysis of the deposited data

How the results depend on the processing

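Over all 12 heart or 6 liver libraries edgeR called 0 of the 9 genes in each of 8 comparisons, also with DESeq2's size factors in edgeR, without the filter and with the replicate block. With the replicate block 1 gene was called in Apex against LV and 0 in the other comparisons. To look for shared numbers, each gene's group mean was subtracted from its log2 CPM, and the remainders were correlated between libraries of different groups. Remainders of same-numbered libraries correlated above 0.1 in 4 of 18 heart pairs and 0 of 3 liver pairs. In heart same-numbered pairs ran from -0.06 to 0.23. Differently numbered ones ran from -0.17 (Apex 1 with OR 2) to 0.18 (Apex 3 with OR 2). Whether the numbers mark shared animals is not settled by these values. DESeq2 called 80 genes over the 4 regions, 24 in Apex against LV, 18 in Apex against VS, 39 in Apex against OR, 18 in LV against VS, 48 in LV against OR, 21 in VS against OR, and 694 with 3 of the 9 genes in liver. Models of 1 pair called 20 genes in Apex against LV, 462 in LV against OR and 956 in Apex against OR, with 2 of the 9 in the last. With each library left out in turn, edgeR called 0 to 1481 genes over the 4 regions, 0 to 1 in Apex against LV, 0 to 1611 in Apex against VS, 0 to 860 in Apex against OR, 0 to 613 in LV against VS, 0 to 375 in LV against OR, 0 to 8 in VS against OR and 0 to 4230 in liver. The highest counts came without VS 1 and, in liver, without tdTomato-negative 3. Of the 9 genes, 0 to 1 were called in LV against VS and 0 to 5 in liver. Over libraries left out, the liver log2 fold change ran from -0.77 to 0.38 for Kcnj8 and from -1.54 to 0.17 for Abcc9, positive without tdTomato-negative 1. Ratios of heart to liver means were recomputed without each library in turn, an alternative chosen after seeing the data, and those that moved by over 1.5 times stand beside them. The causes were not tested. At 0 to 95 counts per library, the values of Myh11 and Cspg4 in liver rested on few reads.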
